A study of Mus musculus with 3 samples.

Results

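Neurotransmitter receptor genes were examined in the spinal cord of mouse embryos at embryonic day 13.5 in which β-catenin, encoded by Ctnnb1, had been stabilised or deleted. The set held the genes of the ionotropic glutamate receptors (AMPA, kainate, delta and NMDA classes), the metabotropic glutamate receptors, the GABA-A and GABA-B receptors, the glycine receptors and the nicotinic acetylcholine receptors, taken by gene symbol. Of 51826 genes in the deposited table, 68 belonged to these families. The minimum for a comparison, 20 counts in 1 library or more, was reached by 18074 genes, 56 of them receptor genes. The other 12 receptor genes stayed below that minimum and are accounted for by class.

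RNA sequencing of whole spinal cord was deposited as 3 libraries, 1 per genotype, all on the C57BL/6 background. The dE3 library came from Nestin-Cre;Ctnnb1-floxed(Ex3) cord, a gain-of-function allele in which Cre removes exon 3 and with it the residues through which β-catenin is marked for breakdown. The cKO library came from Nestin-Cre;Ctnnb1-floxed(Ex2-6) cord, a loss-of-function allele in which Cre removes exons 2 to 6. The WT library came from wild-type cord. Nestin-Cre acts in neural progenitors and the cells they produce, so muscle, cartilage, skin and the crest-derived ganglia are not its intended targets. The labels used here do not say how many embryos went into a library or whether the WT embryo carried Cre.

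Ionotropic receptors are ion channels built from several subunits around a pore, and their make-up sets how long they open and which ions pass. Glutamate and nicotinic receptors pass cations and excite, whereas GABA-A and glycine receptors pass chloride, which depolarises many immature neurons because their internal chloride is high. Metabotropic receptors act through G proteins. In the embryonic cord these genes are switched on as neurons leave the cycle, before most synapses exist, and GABA, glycine and acetylcholine drive the earliest spontaneous activity of motor circuits. Nicotinic receptors also form, from a separate group of subunits, the endplate receptor of skeletal muscle.

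The libraries held 34790053 counts in dE3, 33048837 in cKO and 32167470 in WT. Mitochondrial genes took 2.52% of the counts in dE3, 2.24% in cKO and 2.97% in WT. Ctnnb1 itself had 461 CPM (counts scaled by library total and TMM factor) in dE3, 422 in cKO and 544 in WT, a ratio of 0.847 for dE3 over WT and 0.776 for cKO over WT. A gene total also counts the exons outside the deleted parts, so it checks the labels only weakly. Since each genotype is a single library, the spread between replicates is unknown and no p-value is given. Each ratio is of TMM-scaled counts and carries a 95% exact conditional binomial interval, which covers counting error only. A gene is called higher or lower where the ratio was at least 2 in either direction and the interval excluded 1. The dE3 and cKO comparisons use the same WT library, so they are not independent of each other.

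In the dE3 cord most receptor genes lay below WT by a modest amount. Among the 56 measured genes, 46 (82.1%) had a ratio under 1 for dE3 over WT, with a median log2 ratio of -0.33, whereas the median over all measured genes was 0.00 and 49.5% lay under 1. The counting interval lay wholly below 1 for 39 of the 56 and wholly above 1 for 5, against 28.8% below and 29.1% above among all measured genes. Few passed the 2-fold threshold: 4 receptor genes were called lower (Gabra4, Gabrb1, Gabrr2 and Grin2c), where 3.78% of all measured genes were, and 3 were called higher (Chrna1, Chrng and Gabrp), where 6.52% were. A lower ratio in whole cord cannot tell apart fewer cells of a type and less RNA per cell.

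In the cKO cord the set was centred near WT. Of the 56 genes, 29 had a ratio under 1 for cKO over WT and the median log2 ratio was -0.01, beside 0.00 and 49.7% for all measured genes. The genes called higher numbered 4 (Chrna1, Chrna2, Chrna5 and Chrng), where 3.48% of all measured genes were called, and 1 gene, Gabrr2, was called lower, where 3.41% were. Set directly against each other, dE3 lay below cKO for 44 of the 56 genes, with a median log2 ratio of -0.30 against 0.02 over all measured genes. There, 2 receptor genes were called higher in dE3 (Chrng and Gabrp; background 6.62%) and 4 were called lower (Chrna2, Gabra5, Glra1 and Grin2c; background 4.38%).

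A list of 20 pan-neuronal genes also lay below WT in dE3. Its median log2 ratio was -0.36 for dE3 over WT, with 18 of 20 genes under 1 and none called, and 0.08 for cKO over WT. The summed level of these genes in TPM, the deposited level per transcript length and library size, was 11604 in dE3, 15495 in cKO and 13788 in WT, and none was at 0 in any library. When counts were scaled on this list in place of TMM, the receptor median for dE3 over WT became 0.032. Radial glia and astrocyte-lineage markers summed to 824 TPM in dE3, 1567 in cKO and 1858 in WT. For dE3 over WT, 5 of these 9 were called lower, beside 3.78% of all measured genes, and 3 had a counting interval wholly above 1. Markers of excitatory neurons summed to 296 TPM in dE3, 397 in cKO and 461 in WT. Of these 6, 2 were called lower in dE3, beside 3.78% of all measured genes. Markers of inhibitory neurons summed to 566 TPM in dE3, 525 in cKO and 567 in WT, with none called. Motor neuron markers summed to 287 TPM in dE3, 609 in cKO and 374 in WT. None of these 8 was called in either mutant against WT. Their median log2 ratio was -0.51 for dE3 over WT and 0.28 for cKO over WT. Oligodendrocyte precursor markers summed to 52.2 TPM in dE3, 121 in cKO and 94.0 in WT. For dE3 over WT, 2 of these 5 were called lower, beside 3.78% of all measured genes, and 2 had a counting interval wholly above 1. Their median log2 ratio was -0.15. Olig2, which motor neuron and oligodendrocyte progenitors require, had 0 counts in dE3, 452 in cKO and 532 in WT. All markers of motor, excitatory and inhibitory neurons had counts in every library. The part of cell make-up in the receptor values was not tested.

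**Figure D1:**
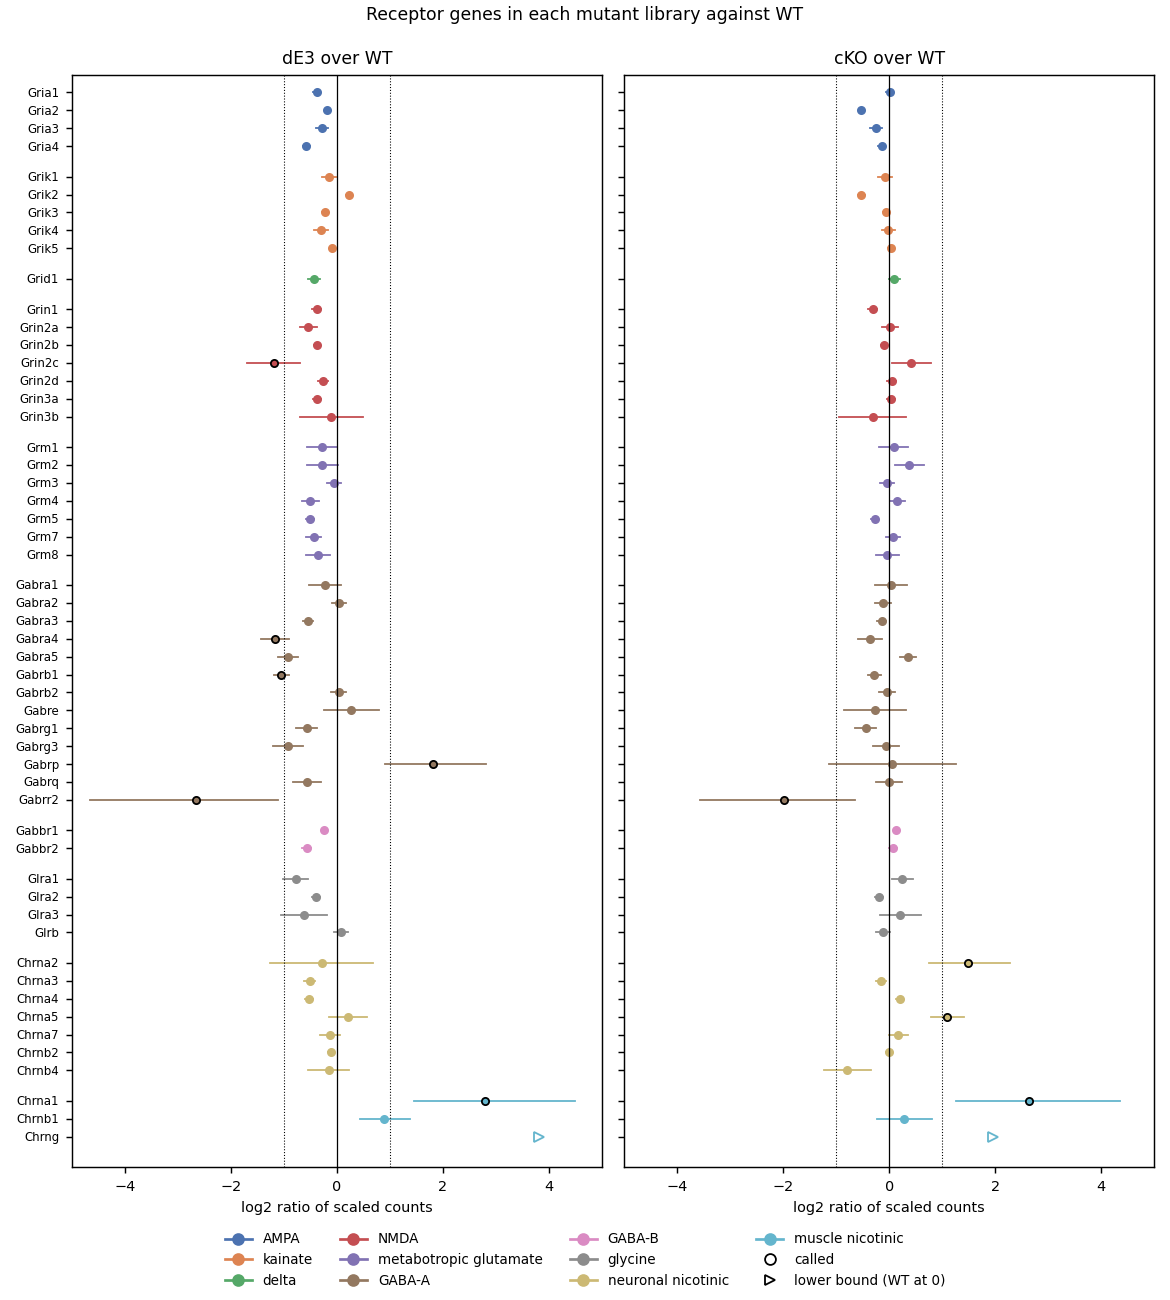
Log2 ratio of measured receptor genes coloured by class, for dE3 over WT (left panel) and cKO over WT (right panel), with 95% counting intervals; dotted lines mark 2-fold, black rims mark called genes and open triangles mark a lower bound. Most dE3 points sit left of 0 (median -0.33), the cKO points lie on both sides of it (median -0.01), and Chrna1 and Chrng stand to the right in both panels.

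AMPA receptors carry fast excitation. Their 4 genes summed to 240 TPM in dE3, 244 in cKO and 295 in WT, and none was called in any comparison. Gria2, whose edited subunit GluA2 keeps calcium out of the channel, was the most abundant per length, at 130 TPM in dE3, 102 in cKO and 143 in WT. Its counts were 11166 in dE3, 8331 in cKO and 11652 in WT, a ratio of 0.874 (0.851 to 0.897) for dE3 over WT and 0.692 (0.673 to 0.712) for cKO over WT. Gria2 therefore lay further below WT in the cKO library than in the dE3 library, whereas the next 2 genes were ordered the other way. Gria4, which gives rapidly closing channels, had 50.9 TPM in dE3, 68.4 in cKO and 76.2 in WT, a ratio of 0.670 (0.640 to 0.701) for dE3 over WT and 0.905 for cKO over WT. Gria1 had 41.7 TPM in dE3, 55.2 in cKO and 53.7 in WT. Through these differences Gria2 made up 54.0% of AMPA-class TPM in dE3, 41.8% in cKO and 48.4% in WT. Gria3 was the least abundant, at 18.0 to 22.2 TPM.

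Kainate receptors modulate release and excitability. Their 5 genes had a median log2 ratio of -0.15 for dE3 over WT and -0.06 for cKO over WT, and none was called. Grik5, whose subunit must pair with one of GluK1 to GluK3 to form a channel, led the class at 149 TPM in dE3, 152 in cKO and 154 in WT. Grik2, a pore-forming partner, went against the set. It had 6955 counts in dE3, 3912 in cKO and 5447 in WT, a ratio of 1.16 (1.12 to 1.21) for dE3 over WT, 0.695 (0.667 to 0.724) for cKO over WT and 1.68 (1.61 to 1.74) for dE3 over cKO. The WT library thus lay between the dE3 and cKO libraries for Grik2, and none of these ratios reached 2-fold. Grik3 had 50.8 TPM in dE3, 56.5 in cKO and 58.6 in WT, and Grik1 and Grik4 stayed between 10.7 and 25.3 TPM. The share of kainate-class TPM held by Grik2 was 23.4% in dE3, 13.9% in cKO and 18.0% in WT.

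The delta receptors bind extracellular bridging proteins at synapses and are barely gated by glutamate itself. Grid1 had 14.5 TPM in dE3, 21.6 in cKO and 19.8 in WT, and was not called.

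NMDA receptors open only when glutamate and a co-agonist bind while the membrane is depolarised. All 7 genes were measured, with a median log2 ratio of -0.38 for dE3 over WT and 0.02 for cKO over WT. Grin1, the subunit every NMDA receptor needs, had 41.1 TPM in dE3, 45.7 in cKO and 53.4 in WT, a ratio of 0.767 for dE3 over WT and 0.807 for cKO over WT. Grin3a, whose subunit binds glycine and lowers calcium entry, had 24.0 TPM in dE3, 31.9 in cKO and 30.5 in WT. Grin2d, a GluN2 subunit with slow closing kinetics that is prominent in the young nervous system, had 24.2 TPM in dE3, 29.7 in cKO and 29.1 in WT. These abundant NMDA genes were lowest in dE3 without reaching the 2-fold threshold.

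The called NMDA gene was Grin2c, whose subunit is best known from the mature cerebellum. It had 53 counts in dE3, 152 in cKO and 110 in WT, which is 0.768 TPM in dE3, 2.32 in cKO and 1.72 in WT. The dE3 library stood below both others: the ratio was 0.439 (0.310 to 0.615) for dE3 over WT and 0.329 (0.236 to 0.452) for dE3 over cKO, while cKO over WT was 1.34 (1.04 to 1.72). Among the GluN2 genes it was the scarcest, with 1.60% of their TPM in dE3, 3.62% in cKO and 2.78% in WT. Grin2b, the main embryonic partner of GluN1, made up 41.6% in dE3, 40.9% in cKO and 42.9% in WT, and Grin2d made up 50.4% in dE3, 46.5% in cKO and 47.0% in WT. Grin2a and Grin3b made up the rest of the class, and neither was called.

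Metabotropic glutamate receptors couple glutamate to G proteins. Grm6, a receptor of retinal bipolar cells, had 0 counts in every library, and the other 7 genes were measured with none called. Their median log2 ratio was -0.35 for dE3 over WT and 0.07 for cKO over WT. Grm5, a group I receptor that acts through phospholipase C, was the most abundant at 49.5 TPM in dE3, 58.7 in cKO and 69.9 in WT, with a ratio of 0.703 (0.671 to 0.737) for dE3 over WT and 0.825 (0.789 to 0.863) for cKO over WT. Grm3, a group II receptor that lowers cyclic AMP, stayed level at 23.1 TPM in dE3, 23.2 in cKO and 23.7 in WT. Grm7, a presynaptic group III receptor, had 13.3 TPM in dE3, 19.9 in cKO and 19.5 in WT. Grm2 was the gene of this class with the highest ratio for cKO over WT, 1.30 (1.08 to 1.57), from 183 counts in dE3, 271 in cKO and 202 in WT.

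**Figure D2:**
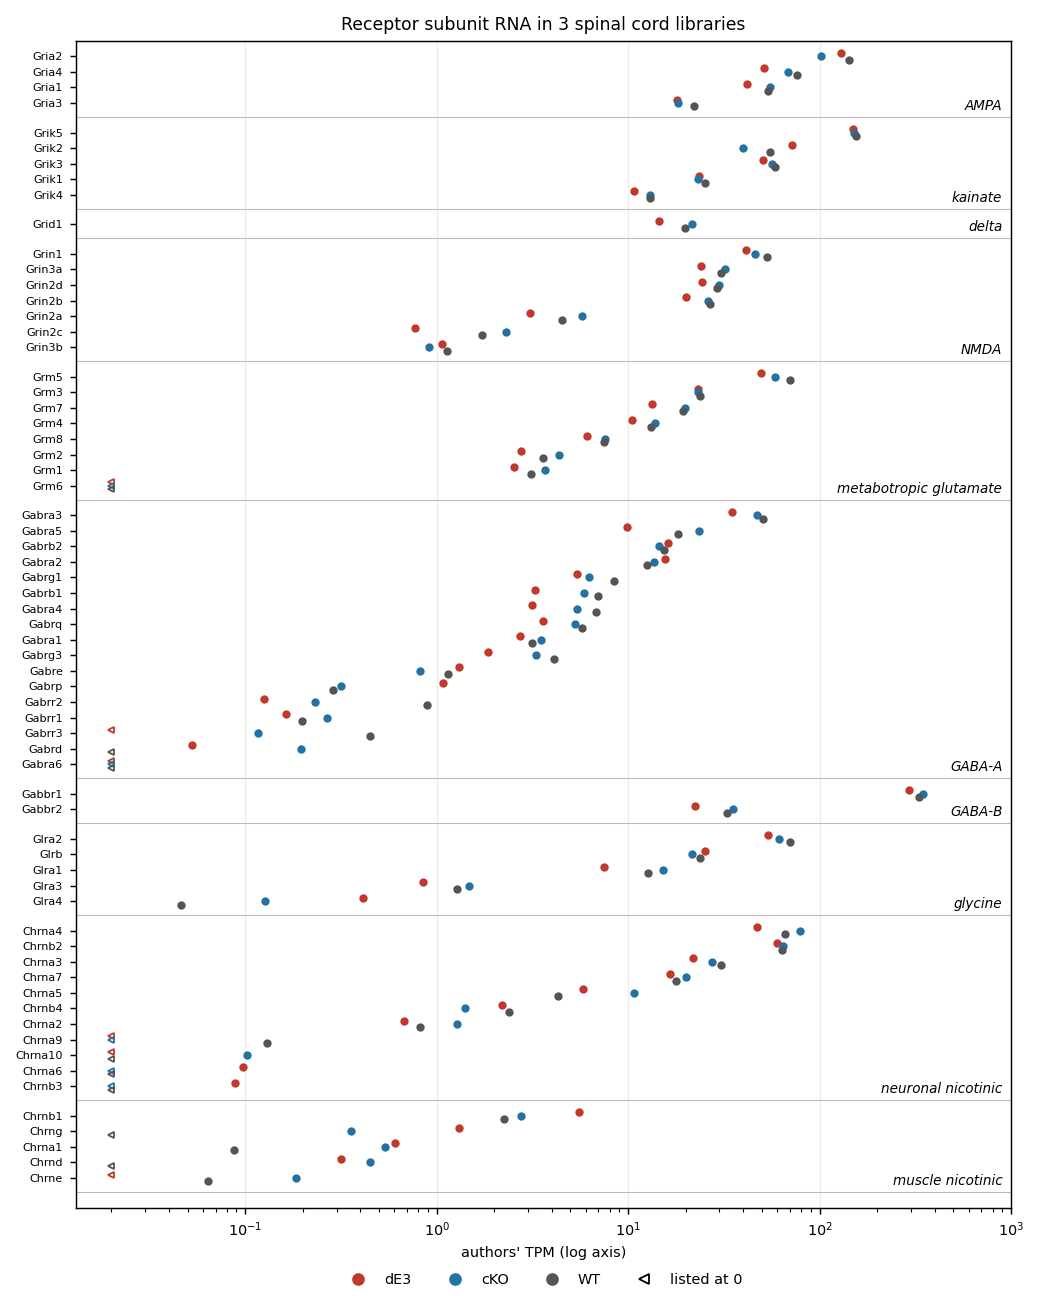
Deposited TPM of receptor genes on a log axis, by class, in the dE3, cKO and WT libraries, with open triangles for genes listed at 0. Each point is 1 library; the highest level is that of Gabbr1, at 292 TPM in dE3, 345 in cKO and 331 in WT.

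GABA-A receptors are chloride channels built from alpha, beta and usually gamma subunits. Of 19 genes, 15 were measured. As a class they had a median log2 ratio of -0.55 for dE3 over WT, -0.12 for cKO over WT and -0.41 for dE3 over cKO. Gabra3, the leading alpha subunit gene, did not reach the threshold. It had 34.9 TPM in dE3, 47.3 in cKO and 50.4 in WT, with a ratio of 0.684 (0.643 to 0.728) for dE3 over WT.

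Gabra4 and Gabrb1, both called lower for dE3 over WT, were scarcer than Gabra3. Gabra4, an alpha subunit of extrasynaptic receptors in the mature brain, had 180 counts in dE3, 296 in cKO and 367 in WT, with a ratio of 0.447 (0.372 to 0.536) for dE3 over WT and 0.780 (0.667 to 0.912) for cKO over WT. Gabrb1, a beta subunit, had 609 counts in dE3, 978 in cKO and 1150 in WT, with a ratio of 0.483 (0.437 to 0.533) for dE3 over WT and 0.823 (0.755 to 0.897) for cKO over WT. For both genes the cKO library lay between dE3 and WT. The direct ratio for dE3 over cKO was 0.573 (0.473 to 0.692) for Gabra4 and 0.587 (0.529 to 0.650) for Gabrb1, short of 2-fold. Gabra5, an alpha subunit of extrasynaptic receptors, had 356 counts in dE3, 809 in cKO and 613 in WT. It was called in the direct comparison, at 0.415 (0.365 to 0.470) for dE3 over cKO, and reached 0.529 (0.463 to 0.604) for dE3 over WT and 1.28 (1.15 to 1.42) for cKO over WT. When counts were scaled on the pan-neuronal genes, Gabra4, Gabrb1 and Grin2c lost their calls for dE3 over WT, and Gabra5 and Glra1 lost theirs for dE3 over cKO.

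Not every alpha subunit gene shared this. Gabra2 had 906 counts in dE3, 764 in cKO and 803 in WT, a ratio of 1.03 (0.934 to 1.13) for dE3 over WT, and Gabrb2 had a ratio of 1.02 (0.926 to 1.13). Gabra2 held 23.6% of alpha-subunit TPM in dE3, 14.6% in cKO and 13.7% in WT, while Gabra5 held 14.9% in dE3, 25.0% in cKO and 20.1% in WT. Gabra3 remained the leading alpha gene throughout, with 52.6% in dE3, 50.8% in cKO and 55.3% in WT.

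**Figure D3:**
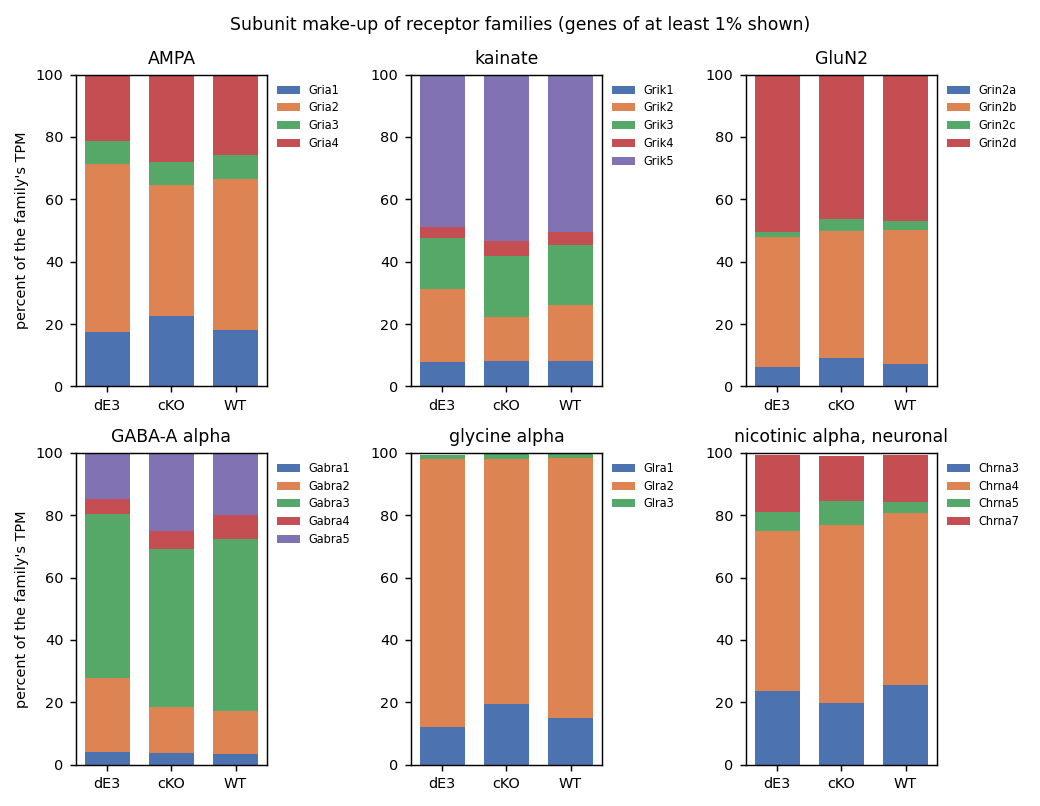
Stacked bars give the percent of its receptor family's summed TPM held by each subunit gene of at least 1%, for 6 families, in the dE3, cKO and WT libraries. Gria2 holds 54.0% of AMPA-class TPM in dE3, 41.8% in cKO and 48.4% in WT, and Gabra2 holds 23.6% of GABA-A alpha TPM in dE3, 14.6% in cKO and 13.7% in WT.

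GABA-A genes lie in clusters in the mouse genome (GRCm38). On chromosome 5, Gabrg1 (70751047 to 70842617), Gabra2 (70957597 to 71095849) and Gabra4 (71569749 to 71658308) lie on the minus strand and Gabrb1 (71658113 to 72149037) on the plus strand. The Gabra4 and Gabrb1 genes start head to head, and their annotated spans overlap by 196 bases. Of the Gabrb1 counts, 607 of 609 in dE3, 971 of 978 in cKO and 1144 of 1150 in WT were assigned to a single transcript, ENSMUST00000031122. That transcript starts at 71699932, outside the overlap. The transcript that starts in the overlap, ENSMUST00000199967, held 2 counts in dE3, 7 in cKO and 6 in WT. The genes of the cluster differed: beside the called Gabra4 and Gabrb1, Gabrg1 had a ratio of 0.674 for dE3 over WT and 0.737 (0.643 to 0.845) for cKO over WT, whereas Gabra2 lay at 1.03 for dE3 over WT. On chromosome 7, where Gabra5 had 0.529 for dE3 over WT, its neighbour Gabrg3 had 169 counts in dE3, 290 in cKO and 293 in WT, a ratio of 0.526 (0.433 to 0.638) for dE3 over WT.

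**Figure D4:**
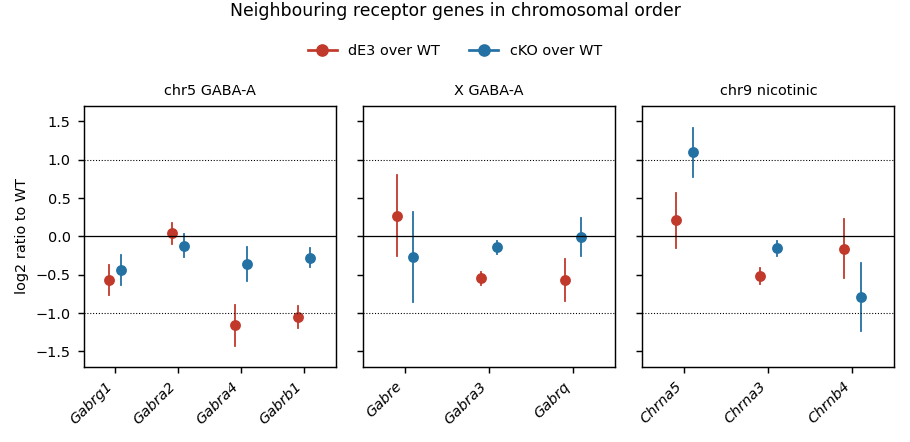
Log2 ratio with 95% counting interval for the genes of 3 receptor gene clusters, drawn in the order in which they lie along the chromosome, for dE3 over WT and cKO over WT; dotted lines mark 2-fold. Genes of a cluster differ among themselves: on chromosome 5 Gabra4 (0.447) and Gabrb1 (0.483) lie below Gabra2 (1.03) for dE3 over WT.

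The rarer GABA-A subunits were near the detection limit. Gabrp, the pi subunit, is known from epithelia such as uterus and mammary gland, and it had 50 counts in dE3, 14 in cKO and 13 in WT. The dE3 library was the high one: the ratio was 3.51 (1.88 to 7.04) for dE3 over WT, 1.04 (0.454 to 2.41) for cKO over WT and 3.37 (1.83 to 6.59) for dE3 over cKO. A list of 10 epidermis genes summed to 34.8 TPM in dE3, 15.9 in cKO and 13.8 in WT. Of these, 7 of 10 were called higher in dE3, beside 6.52% of all measured genes, and Krt17 was at 0 in WT. The median log2 ratio of the list was 1.62 for dE3 over WT and 0.42 for cKO over WT. That list was chosen after the Gabrp values had been seen, and the part of epithelial RNA in them was not tested. Gabrr2, a rho subunit known mainly from retina, had 4 counts in dE3, 6 in cKO and 23 in WT, so it was called lower in both mutants, at 0.159 (0.0399 to 0.464) for dE3 over WT and 0.252 (0.0841 to 0.638) for cKO over WT. It was the measured gene nearest to the minimum count and has the widest intervals of the genes called lower. Gabre and Gabrq were not called, Gabra6 had 0 counts in all libraries, and Gabrd, Gabrr1 and Gabrr3 did not pass the minimum, with at most 10 counts in any library.

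GABA-B receptors are obligate pairs of Gabbr1, which binds GABA, and Gabbr2, which couples to the G protein. Gabbr1 had the highest level of the whole receptor set, 292 TPM in dE3, 345 in cKO and 331 in WT, with a ratio of 0.840 (0.821 to 0.859) for dE3 over WT. Gabbr2 was far less abundant per length, at 22.4 TPM in dE3, 35.1 in cKO and 32.8 in WT, and had a ratio of 0.674 (0.633 to 0.716) for dE3 over WT, 1.05 for cKO over WT and 0.640 (0.603 to 0.680) for dE3 over cKO. Of the pair, the scarcer partner thus lay further below WT in dE3. Neither gene was called.

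Glycine receptors mediate inhibition in the mature cord. Of 5 genes, 4 were measured, with a median log2 ratio of -0.51 for dE3 over WT and 0.05 for cKO over WT. Glra2, the embryonic alpha subunit, had 53.9 TPM in dE3, 61.3 in cKO and 69.7 in WT, with a ratio of 0.760 (0.720 to 0.803) for dE3 over WT and 0.875 (0.829 to 0.923) for cKO over WT. Glra1, the alpha subunit of adult cord, had 244 counts in dE3, 466 in cKO and 381 in WT, or 7.52 TPM in dE3, 15.1 in cKO and 12.6 in WT. It was called lower in the direct comparison, at 0.493 (0.421 to 0.577) for dE3 over cKO, and reached 0.584 (0.495 to 0.687) for dE3 over WT and 1.18 (1.03 to 1.36) for cKO over WT. Glrb, whose subunit binds the scaffold gephyrin, did not follow the alpha subunits: it had 25.3 TPM in dE3, 21.5 in cKO and 23.8 in WT, a ratio of 1.05 (0.962 to 1.16) for dE3 over WT. Of alpha-subunit TPM, Glra1 held 12.0% in dE3, 19.4% in cKO and 15.1% in WT. Glra3 was not called, and Glra4 stayed just below the minimum count, with 11 counts in dE3, 4 in cKO and 2 in WT.

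Neuronal nicotinic receptors, the acetylcholine-gated channels of neurons, summed to 154 TPM in dE3, 204 in cKO and 185 in WT over 7 measured genes of 11. Their median log2 ratio was -0.16 for dE3 over WT, 0.17 for cKO over WT and -0.36 for dE3 over cKO. Chrna4 and Chrnb2 encode the subunits of the major high-affinity receptor. Chrna4 had 47.1 TPM in dE3, 78.8 in cKO and 65.7 in WT, with a ratio of 0.694 (0.661 to 0.728) for dE3 over WT and 1.15 (1.10 to 1.20) for cKO over WT, while Chrnb2 had 59.8 TPM in dE3, 64.1 in cKO and 63.3 in WT. Chrna3, the alpha subunit of the ganglionic receptor, had 21.9 TPM in dE3, 27.3 in cKO and 30.4 in WT. Chrna7, which forms channels of a single subunit, was not called.

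Both neuronal nicotinic genes called in any comparison were higher in cKO. Chrna5, an accessory subunit, had 152 counts in dE3, 265 in cKO and 120 in WT, with a ratio of 2.14 (1.72 to 2.67) for cKO over WT, 1.15 (0.903 to 1.48) for dE3 over WT and 0.540 for dE3 over cKO. The call rested on 1 of its transcripts: ENSMUST00000213960 was given 122 counts in dE3, 211 in cKO and 44 in WT, whereas ENSMUST00000217408 was given 30 in dE3, 54 in cKO and 76 in WT. Chrna5 lies on chromosome 9 (54980880 to 55007779, plus strand), 2331 bases from Chrna3, with Chrnb4 on the far side of Chrna3, and the other genes of this cluster did not share its direction. Chrna3 had a ratio of 0.897 (0.836 to 0.962) for cKO over WT, and Chrnb4, with 115 counts in dE3, 70 in cKO and 117 in WT, had 0.579 (0.424 to 0.785).

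Chrna2, an alpha subunit of a few interneuron types in the mature nervous system, had 19 counts in dE3, 61 in cKO and 21 in WT. The ratio was 2.81 (1.69 to 4.86) for cKO over WT and 0.293 (0.166 to 0.498) for dE3 over cKO. In the cKO library all 61 counts were assigned to ENSMUST00000022620, which had 0 counts in dE3 and WT, where all counts were assigned to ENSMUST00000206455. TPM takes transcript length into account, and the TPM values lay closer together than the counts, at 0.672 in dE3, 1.28 in cKO and 0.820 in WT. On a log2(TPM + 0.1) scale Chrna2 differed by 0.58 for cKO over WT and by -0.84 for dE3 over cKO, and neither call stood. Dorsal root ganglion markers summed to 93.2 TPM in dE3, 214 in cKO and 113 in WT, and none was at 0 in any library. Of these 8, 2 were called higher in cKO, beside 3.48% of all measured genes. Autonomic neuron markers summed to 19.4 TPM in dE3, 43.0 in cKO and 28.7 in WT. However, 2 of the 4 were called lower in cKO, beside 3.41% of all measured genes, with Dbh at 0 there. Their median log2 ratio was -0.79 for cKO over WT. In dE3, 1 of the 4 was called higher and 1 lower, beside 6.52% and 3.78% of all measured genes, with a median of -0.58 for dE3 over WT. The part of ganglion tissue in the nicotinic values was not tested. The 4 neuronal nicotinic genes below the minimum, Chrna6, Chrna9, Chrna10 and Chrnb3, had at most 5 counts in any library.

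Among measured receptor genes the largest ratios to WT were those of Chrna1 and Chrng, which encode subunits of the muscle endplate receptor. The fetal receptor of skeletal muscle is built from Chrna1, Chrnb1, Chrnd and Chrng, and Chrne takes the place of Chrng after birth. Chrna1 (chromosome 2, 73563215 to 73580338, minus strand) had 38 counts in dE3, 32 in cKO and 5 in WT, with a ratio of 6.93 (2.72 to 22.6) for dE3 over WT and 6.19 (2.40 to 20.4) for cKO over WT. Chrng (chromosome 1, 87204657 to 87212694, plus strand) had 46 counts in dE3, 12 in cKO and 0 in WT. Set against a floor of 3 counts in the WT library, Chrng was at least 14.0-fold higher in dE3 and at least 3.87-fold higher in cKO, and dE3 over cKO was 3.61 (1.88 to 7.49). Chrnb1 had 118 counts in dE3, 73 in cKO and 58 in WT, with an uncalled ratio of 1.85 (1.34 to 2.59) for dE3 over WT and 1.22 (0.851 to 1.75) for cKO over WT. Chrna1 and Chrng were thus called higher in both mutants, and Chrng was also higher in dE3 than in cKO. Chrnd, 4586 bases from Chrng, stayed below the minimum with 14 counts in dE3, 14 in cKO and 0 in WT, and Chrne had 0 counts in dE3, 4 in cKO and 2 in WT.

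Most skeletal muscle markers were also higher in both mutants than in WT. For dE3 over cKO all 16 were called higher, with a median ratio of 3.75, beside 6.62% of all measured genes. In that comparison Chrng had 3.61 and Chrna1 had 1.12 (0.681 to 1.85), while Chrnd had 14 counts in dE3 and 14 in cKO. The 16 genes of that list summed to 321 TPM in dE3, 84.2 in cKO and 22.7 in WT. All 16 were called higher in dE3 than in WT, beside 6.52% of all measured genes, and 12 in cKO, beside 3.48%. The median log2 ratios were 3.53 for dE3 over WT and 1.62 for cKO over WT. Tnni1 and Ckm were at 0 in WT and Ckm also in cKO. Cartilage markers summed to 391 TPM in dE3, 173 in cKO and 54.1 in WT. The part of muscle tissue in the endplate receptor values was not tested. Without the muscle-type genes, the median log2 ratio of the remaining 53 receptor genes was -0.37 for dE3 over WT and -0.04 for cKO over WT.

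**Figure D5:**
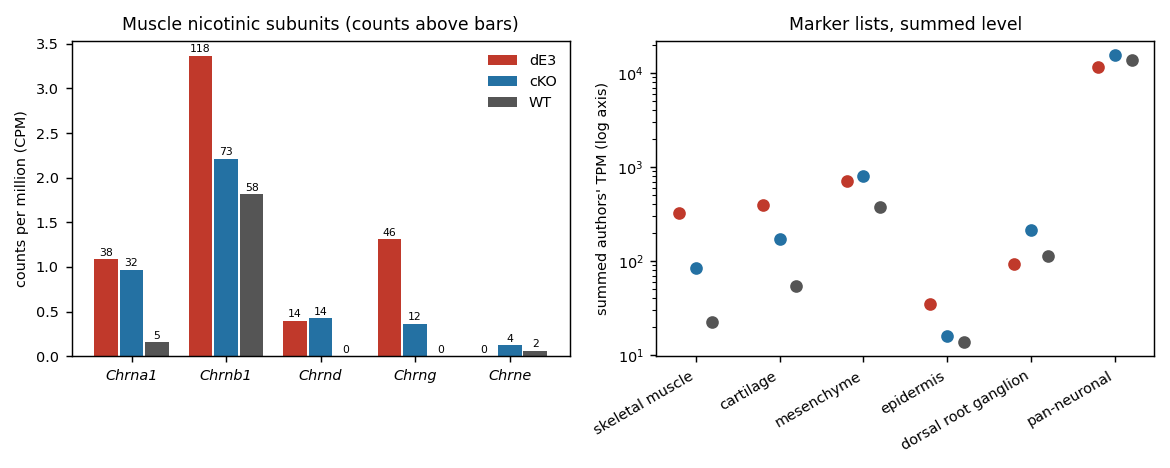
Left, CPM of the muscle-type nicotinic genes in the dE3, cKO and WT libraries, with counts above the bars; right, summed TPM of marker lists on a log axis. Chrng has 46 counts in dE3, 12 in cKO and 0 in WT, and Chrna1 has 38 in dE3, 32 in cKO and 5 in WT. Chrnb1 has 118 in dE3, 73 in cKO and 58 in WT. Chrnd has 14 in dE3, 14 in cKO and 0 in WT, and Chrne has 0 in dE3, 4 in cKO and 2 in WT. The muscle markers sum to 321 TPM in dE3, 84.2 in cKO and 22.7 in WT.

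The promoters of the 3 genes called higher in dE3 are shown, with letters that factors of muscle or of the β-catenin pathway are known to bind: Chrna1 and Chrng, with the letters CAGCTG in capitals, an E-box form that muscle bHLH factors are known to bind, and Gabrp, with CTTTGAT on either strand in capitals (read as ATCAAAG here), the core bound by the TCF/LEF partners of β-catenin. Each is 300 bases from RefSeq on GRCm38.p6, with 250 bases before the annotated start and 50 after it, read 5′ to 3′ on the gene's strand: chr2:73580289-73580588 (minus) for Chrna1, chr1:87205561-87205860 (plus) for Chrng and chr11:33578908-33579207 (minus) for Gabrp.
Chrna1: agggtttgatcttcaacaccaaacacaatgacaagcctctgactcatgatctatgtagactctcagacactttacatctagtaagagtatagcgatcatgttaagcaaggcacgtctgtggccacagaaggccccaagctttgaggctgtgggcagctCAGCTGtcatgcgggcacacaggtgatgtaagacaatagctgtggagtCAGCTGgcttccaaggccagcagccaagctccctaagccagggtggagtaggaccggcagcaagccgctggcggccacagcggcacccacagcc
Chrng: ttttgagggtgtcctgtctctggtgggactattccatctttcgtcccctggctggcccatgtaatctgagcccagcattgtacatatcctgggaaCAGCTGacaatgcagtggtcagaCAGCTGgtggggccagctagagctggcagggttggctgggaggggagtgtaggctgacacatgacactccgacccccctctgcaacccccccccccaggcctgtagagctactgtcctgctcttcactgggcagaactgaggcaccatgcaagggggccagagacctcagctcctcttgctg
Gabrp: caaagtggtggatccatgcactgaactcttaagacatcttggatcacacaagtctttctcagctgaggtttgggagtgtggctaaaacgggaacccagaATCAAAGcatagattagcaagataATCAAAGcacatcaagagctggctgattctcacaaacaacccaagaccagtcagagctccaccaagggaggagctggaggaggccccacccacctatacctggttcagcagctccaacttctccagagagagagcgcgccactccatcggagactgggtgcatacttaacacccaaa

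CAGCTG stood 92 and 44 bases before the start of Chrna1 and 155 and 132 bases before that of Chrng. It also occurred 1 time each in the windows of Gabrp, where it is left in lower case, and of Chrne, Chrna9, Chrnb4 and Glra3. The window of Chrnb1 held it 0 times. Of 32544 promoter windows of this length, 16.4% held it at least once and 1.91% at least 2 times. The looser form CANNTG, which includes CAGCTG, was in 72.3% of windows. In Gabrp the CTTTGAT core stood 151 and 127 bases before the start, and 3.73% of windows held it at least once and 0.0922% at least 2 times. The core also occurred 1 time in a window of Chrna5, called higher in cKO, and 1 time in a window of Gabrb2, which was not called. The transcript starting in that Chrna5 window, ENSMUST00000093844, had 0 counts in every library, and the other Chrna5 window held the core 0 times. These are matches of letters, chosen after the values had been seen, and no binding was measured. The promoter table held 48 of the 68 receptor genes.

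Genes whose products assemble, anchor or modify the receptors were compared in the same way. Of 14 auxiliary subunits of AMPA and kainate receptors, 1 was called higher in dE3, where 6.52% of all measured genes were, and none in cKO, with medians of -0.29 for dE3 over WT and -0.12 for cKO over WT. The called gene, Gsg1l, encodes an AMPA auxiliary protein that slows recovery of the channel; it had 4727 counts in dE3, 1664 in cKO and 1529 in WT, a ratio of 2.82 (2.66 to 2.99) for dE3 over WT. None of 18 glutamate receptor scaffolds and none of 10 GABA and glycine receptor partners was called in either mutant against WT.

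Of 10 nicotinic chaperones and endplate assembly genes, 3 were called higher in dE3, beside 6.52% of all measured genes. Rapsn, which clusters the receptor at the endplate, had a ratio of 3.44 (1.84 to 6.90) for dE3 over WT, and Lrp4, the agrin receptor, had 2.79 (2.62 to 2.96). Lypd6, which binds nicotinic receptors, had 2.49 (2.12 to 2.92) for dE3 over WT and 2.04 (1.73 to 2.41) for cKO over WT, the 1 gene of the list called higher in cKO, beside 3.48% of all measured genes. Musk, the endplate kinase, had 28 counts in dE3, 2 in cKO and 16 in WT. It was called lower in cKO, beside 3.41% of all measured genes, so the endplate genes did not move together there. Of 14 other cholinergic, purinergic and serotonin-gated receptors, P2rx7 was called higher in dE3, at 2.37 (2.03 to 2.77), and Chrm5 (0.292) and Htr3b (0.456) lower, beside 6.52% higher and 3.78% lower of all measured genes. In cKO, P2rx1 (2.46) was called higher and P2rx5 (0.426) lower, beside 3.48% higher and 3.41% lower of all measured genes.

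The precision of these values follows the counts. The median half-width of the counting interval over the measured receptor genes was 0.141 on the log2 scale for dE3 over WT, so the modest shifts of abundant genes exceed counting error, while the spread between embryos is not known. At the minimum count, the genes just inside were Gabrr2 with at most 23 counts and Chrna1 with 38, and those just outside were Chrnd with 14 and Glra4 with 11. Of the 68 genes, 10 shared over 5% of their 50-base words with another gene, among them Grin3b (23.6%, with Tmem259) and Chrnb2 (14.2%, with Adar), and none of the 11 genes called in any comparison did.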

How the data were processed

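Polyadenylated RNA of whole spinal cord at embryonic day 13.5 was sequenced as 3 libraries, 1 per genotype, grouped by their titles. The authors deposited estimated counts per gene and per transcript as whole numbers, with TPM and FPKM values beside them; per the file headers these are per gene and per transcript, and each gene count equals the sum of its transcripts. CASAVA, Bowtie2 2.3.2 and GRCm38.p6 stand in the submitters' processing notes without a role. For quantifier, annotation and strand setting nothing is stated in the sources used here, so overlapping antisense genes cannot be separated. The deposited FPKM values were examined for their unit only. A lane-like tag in the library names is shared by dE3 and WT and differs in cKO, and it cannot be told apart from the cKO genotype.

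Gene counts were scaled by TMM factors (edgeR 4.0.16, R 4.3.3): 1.01 in dE3, 0.999 in cKO and 0.993 in WT. Genes with at least 20 counts in at least 1 library were compared as ratios with exact conditional binomial (Clopper-Pearson) 95% intervals, and the calling was tested on simulated data. The simulated counts held counting error only, with planted differences beyond 2-fold. That test therefore could not show calls that arise from the spread between embryos. The reads have no molecular identifiers and may repeat a molecule, so neither intervals nor floors hold more than counting error. A gene at 0 was set against 3 counts in that library. Levels of different genes were compared in deposited TPM. DESeq2 1.42.0 size factors, scaling on 20 pan-neuronal genes, other minimums, a 1.5-fold threshold, TPM with pseudocounts of 0.1 and 1, and leaving out of each gene the transcript whose counts differed most were alternatives.

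Values are given for every receptor gene called in any comparison, for the 3 with the highest mean TPM of each class, and for those next to the minimum; others are named where they bear on one of these. The values of some receptor genes are not reported here. The genes and lists were chosen with earlier results of these data known, and the epidermis list and promoter motifs after the values were seen. Promoter sequences are from RefSeq.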

Additional observations from a re-analysis of the deposited data

Results flagged for a closer look

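Chrnd, the delta subunit of the muscle endplate receptor, stood outside the comparisons because it stayed below the minimum of 20 counts. It nevertheless had 14 counts in dE3 and 14 in cKO, against 0 in WT, where a count of 0 allows up to 3 counts. It therefore had counts in the same libraries in which Chrna1 and Chrng were called higher. The difference has no replicate check.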

How the results depend on the processing

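No paired analysis was possible because each genotype has 1 library. DESeq2 size factors moved no count of receptor calls, and the median of all genes by at most 0.009 (log2). Scaling on the pan-neuronal genes shifted all log2 ratios by 0.357 for dE3 over WT, -0.076 for cKO over WT and 0.408 for dE3 over cKO; the receptor median became 0.032 for dE3 over WT (main -0.33) and 0.11 for dE3 over cKO (main -0.30).

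For dE3 over WT, the 3 receptor genes called higher became 1 at a minimum of 50 counts, 5 with no minimum and 6 without the transcript of each gene that differed most. With TPM and a pseudocount of 1 they became 2, of which 1 (Chrng) was among the 3. The 4 called lower became 1 under pan-neuronal scaling, 0 with TPM and a pseudocount of 1, 8 at 1.5-fold and 10 without that transcript. Of those 10, 2 (Gabrr2 and Grin2c) were among the 4, and each of these had counts in a single transcript, so nothing was left out of them. For cKO over WT, the 4 called higher became 2 at 50 counts, 1 with TPM and a pseudocount of 1, and 6 without that transcript, of which 1 (Chrna1) was among the 4. Chrna1 has a single transcript, so nothing was left out of it and its call could not change. The 1 called lower became 0 at 50 counts, 0 with TPM and a pseudocount of 1, 2 at 1.5-fold and 5 without that transcript. For dE3 over cKO, the 2 called higher became 5 under pan-neuronal scaling, 1 at 50 counts, 0 with TPM and a pseudocount of 1, 5 at 1.5-fold and 5 without that transcript. Of these last 5, 1 (Gabrp) was among the 2. The 4 called lower became 2 under pan-neuronal scaling, 2 with TPM and a pseudocount of 0.1, 1 with a pseudocount of 1, 13 at 1.5-fold and 9 without that transcript, where the median was -0.15. Of those 9, 3 (Gabra5, Glra1 and Grin2c) were among the 4. A pseudocount pulls the ratios of scarce genes towards 1, and a higher minimum tests fewer genes.

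Without that transcript, 4 called log2 ratios changed sign: Gabra4 for dE3 over WT became 2.45, on 6 counts in dE3 against 1 in WT, Chrna2 became -2.86 for cKO over WT and 2.58 for dE3 over cKO, and Chrna5 became -0.54 for cKO over WT. Of 136 alternatives for single called genes, 107 kept direction and call, 25 lost the call and 4 changed sign. Part of the 107 was fixed beforehand. A 1.5-fold threshold or no minimum cannot remove a call, and a minimum of 50 counts does not alter a gene that passes it. A gene with counts in a single transcript was left unchanged when transcripts were left out. Genes that fell out of an alternative are not among the 136. Depth limits the called genes with under 50 counts, Chrna1, Chrng and Gabrr2, and the absence of replicates limits every ratio.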
